A study of Mus musculus with 7 samples.

Results

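Expression of 10 genes of bone morphogenetic protein (BMP) signaling was read in neurospheres grown from the hippocampus of adult control and Med23 conditional knockout (CKO) mice. Med23 is a subunit of the Mediator complex that links transcription factors to RNA polymerase II. The genes encode the type I receptors Bmpr1a, Bmpr1b, Acvr1 and Acvrl1, the type II receptor Bmpr2, the inhibitory Smad protein Smad6, and the target genes Id1, Id2, Id3 and Id4. They were taken by gene symbol from the 24346 genes of the deposited table, and each symbol was found once.

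BMP ligands bind a complex of type I and type II receptors, in which the type II receptor activates the type I kinase. The type I receptors then phosphorylate Smad1, Smad5 and Smad9, which join Smad4, enter the nucleus and switch on targets that include the Id genes and Smad6. Id proteins have a helix-loop-helix domain but no DNA-binding region, and they hold back differentiation by taking E proteins away from proneural factors. In the adult hippocampus, BMP signals are known for keeping neural stem cells (NSCs) quiescent and for favoring a glial fate.

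Each library came from primary neurospheres, which are free-floating clones of NSCs and their progeny, cultured for 8 days with FGF and EGF. There were 4 control libraries, labelled as wild type (mice WT_215, WT_116, WT_213, WT_220). The other 3 were Med23 CKO libraries (mice KO_117, KO_214 and KO_218), all of the strain C57/BL6 and all from mice aged 2 months. In Med23 CKO mice (Nestin-CreER:Med23 flox/flox), a tamoxifen-inducible Cre driven from Nestin sequences deletes exons 5 to 7 of Med23, so that only Nestin-expressing cells and their descendants should lose the gene. Per the methods, controls were littermates that carried the floxed allele without Cre (Med23 flox/+ or Med23 flox/flox), and both groups received tamoxifen by gavage at 200 mg/kg for 5 days, at 2 months of age according to the labels and at 1 month for cultures according to the methods. Recovery after tamoxifen was given as 3 to 4 weeks for both groups. Values are listed below in the mouse order given here, control first.

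Med23 measured 11.4, 10.3, 12.9 and 10.1 FPKM in the controls and 9.97, 9.27 and 8.12 FPKM in Med23 CKO, so that each Med23 CKO value lay under each control value (exact permutation test, two-sided, p = 0.0571, n = 4 and 3). The difference was small, with a Med23 CKO mean of 0.817 times the control mean. In limma's moderated test, described below, the log2 fold change was -0.26 (unadjusted p = 0.175). FPKM, a read count scaled to transcript length and library depth, covers the whole gene, including the exons that are not deleted. Markers of NSCs summed to between 2078 and 3952 FPKM over 10 genes in the 7 libraries, and none of the markers of NSCs, neurons, oligodendrocyte lineage, endothelium, mural cells or microglia was at 0 in any library. The library of mouse KO_214 stood apart from the others. Its 13 microglia and macrophage markers summed to 1115 FPKM (39.0 to 249 FPKM elsewhere), its 8 mural and fibroblast markers to 302 FPKM (5.97 to 80.3 FPKM elsewhere) and its 10 cell division genes to 254 FPKM (412 to 1418 FPKM elsewhere). Where leaving out this library turned a direction or moved a fold change widely, both values are given.

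Of the 10 genes, 9 had a higher and 1, Bmpr1b, had a lower mean of log2(FPKM + 1) in Med23 CKO neurospheres. Without mouse KO_214, 4 had a higher and 6 a lower mean. In limma's moderated test, which was run over 14151 genes whose mean reached 0.5 FPKM, Bmpr1b was lower at an unadjusted p under 0.05, as were 0.996% of all genes tested. None of the 10 was higher at that threshold, where 0.502% of all genes were. At an adjusted p under 0.05, limma called 0 of the 10 and 0% of all genes, and the limma adjusted p was above 0.99 for each of the 9 genes of this set that entered the test. Smad6 did not enter it because its mean FPKM was too low. Full separation of the groups was seen in 0 of the 10 genes. Among all genes tested, 1.53% had each Med23 CKO library under each control and 0.784% had each one above. The median log2 fold change of the 10 genes was 0.22, beside -0.03 over all genes tested, and it was -0.03 without mouse KO_214.

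**Figure D1:**
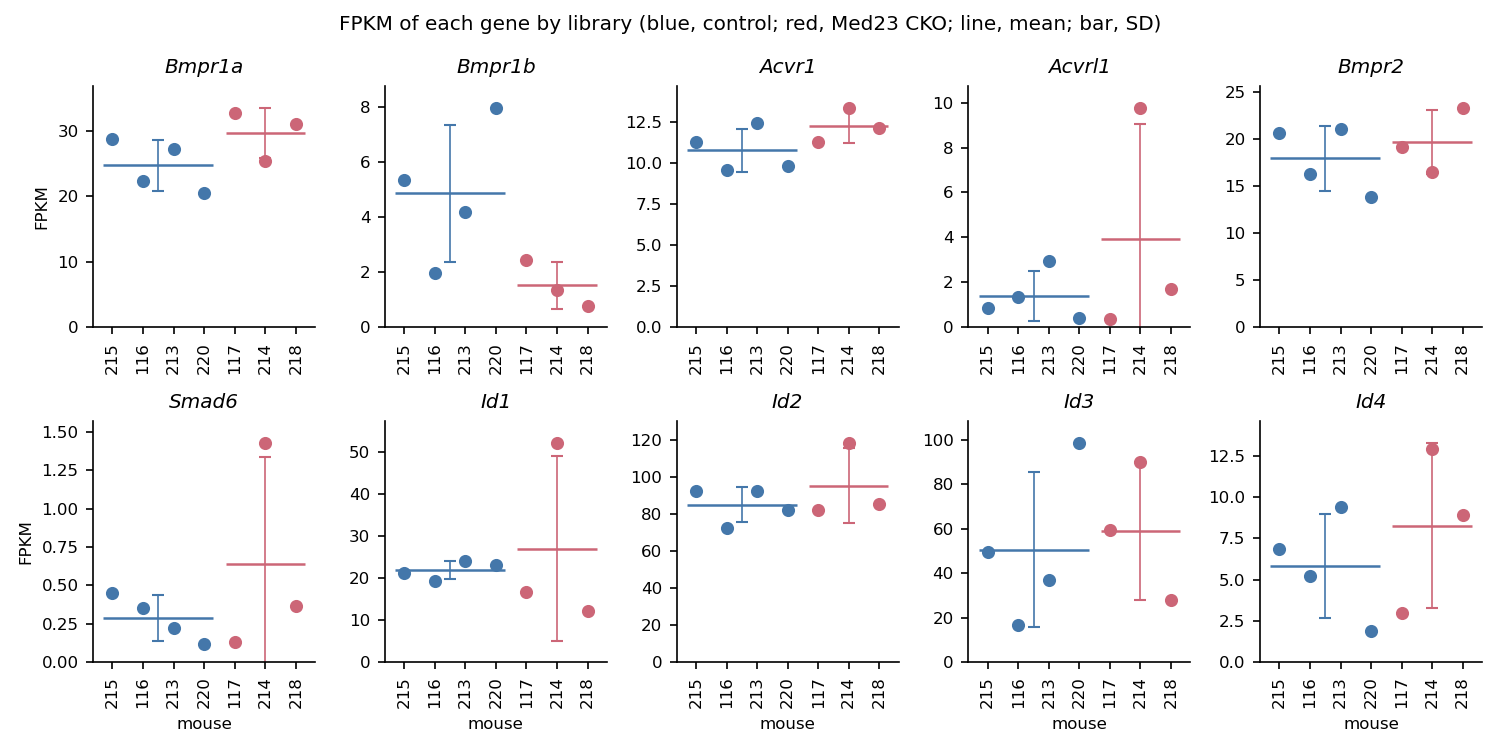
FPKM of the 10 genes (vertical axes, from 0) in each library (horizontal axes, mouse number), with control libraries in blue and Med23 CKO libraries in red. Horizontal lines are group means and bars are SD (n = 4 and 3), which are cut off at 0 for Acvrl1 and Smad6. The 3 Med23 CKO values of Bmpr1b, at most 2.45 FPKM, lie at the low end of the controls, while Acvrl1, Smad6 and Id1 each have 1 high point, in mouse KO_214.

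Bmpr1b encodes a type I receptor that is close in sequence to Bmpr1a and is activated by BMP and GDF ligands. It measured 5.35, 1.97, 4.17 and 7.96 FPKM in the controls and 2.45, 1.35 and 0.757 FPKM in Med23 CKO. The groups overlapped through 1 pair of libraries, control WT_116 and Med23 CKO KO_117, and the remaining controls were above every Med23 CKO library. Mean FPKM was 3.20-fold lower in Med23 CKO. Markers of NSCs summed to 3550, 2078, 3303 and 3952 FPKM in the controls and to 3902, 2235 and 2329 FPKM in Med23 CKO. Like Bmpr1b, this sum was lowest in WT_116 among the controls and highest in KO_117 among Med23 CKO. The part of NSC content in the Bmpr1b values was not tested. On the log2(FPKM + 1) scale, where changes of weakly expressed genes come out too small, Bmpr1b was at -1.17 in log2 fold change (SE 0.41, 95% interval -2.13 to -0.21, limma unadjusted p = 0.0235). The exact permutation test gave p = 0.0857 (two-sided, n = 4 and 3), where 0.0286 is the smallest value the 35 ways of dividing the libraries allow. The direction held with each library left out in turn (log2 fold changes from -1.46 to -0.93), but limma's unadjusted p rose above 0.05 without control WT_215 (0.0567), control WT_220 (0.0526), Med23 CKO KO_214 (0.0556) or Med23 CKO KO_218 (0.0900). Among the 5 mice whose number begins with 2, which leaves out WT_116 and KO_117, the log2 fold change was -1.71. In that fit 1381 genes over all were lower at an unadjusted p under 0.05, against 141 with all 7 libraries.

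Bmpr1b lies on the reverse strand of chromosome 3 of GRCm38 (mm10), from 141837136 to 142169425, a protein-coding gene with 5 transcripts in GENCODE M21. Its deposited value does not separate transcripts. RefSeq gives 3 start sites, all downstream of the first base of the GENCODE gene. The promoter of the most upstream of the 3 is shown because Bmpr1b is the gene of the set with an unadjusted p under 0.05. The 250 bases before it (GRCm38.p6, chr3:141982265-141982514, reverse strand) are printed 5′ to 3′ with matches of the searched motifs in capitals:
Bmpr1b: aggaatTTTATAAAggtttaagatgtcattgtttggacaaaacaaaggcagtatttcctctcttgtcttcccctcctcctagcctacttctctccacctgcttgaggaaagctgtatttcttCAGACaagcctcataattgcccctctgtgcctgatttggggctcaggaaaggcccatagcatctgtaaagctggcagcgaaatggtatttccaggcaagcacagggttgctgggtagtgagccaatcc
The capitals mark CAGAC, the core of a Smad-binding element, 128 bases before the start, and a pair of overlapping TATAAA matches on opposite strands, 244 and 242 bases before it. CAGAC was present on either strand in 49.6% of the 32851 RefSeq promoter windows of 300 bases (250 before and 50 after the start), and TATAAA in 13.6%. The middle start of Bmpr1b had 1 CAGAC match and the third start had 0 matches of the 7 motifs. GC content was 48.3% around the most upstream start, beside a median of 52.7% over all windows.

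Bmpr1a, the main type I receptor of BMP2 and BMP4, was the most abundant of the 4 type I receptors in each of the 7 libraries. It measured 28.8, 22.3, 27.1 and 20.5 FPKM in the controls and 32.6, 25.3 and 30.9 FPKM in Med23 CKO. The groups overlapped, and the log2 fold change was 0.26 (SE 0.19, 95% interval -0.18 to 0.70). Exons of Bmpr1a share 290 bases with the antisense gene Gm17110. Acvr1, a type I receptor used by BMP6 and BMP7, had the narrowest spread of the receptors, with 11.2, 9.58, 12.4 and 9.78 FPKM in the controls and 11.3, 13.3 and 12.1 FPKM in Med23 CKO. The ranges overlapped, and the log2 fold change was 0.18 (SE 0.17, 95% interval -0.23 to 0.58). Bmpr2, the type II receptor that pairs with each of these kinases, measured 20.6, 16.3, 21.03 and 13.8 FPKM in the controls and 19.2, 16.5 and 23.3 FPKM in Med23 CKO. Its values overlapped through most of their range, and its log2 fold change was 0.13 (standard error 0.21, 95% interval -0.37 to 0.63).

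FPKM is scaled to length, so the receptors can be added within a library. A share of that sum does not depend on the scaling of the library, whereas the sum itself does. Bmpr1b made up 11.6, 5.60, 8.95 and 20.6% of the summed type I receptor FPKM in the controls and 5.25, 2.71 and 1.66% in Med23 CKO. Each Med23 CKO share was below each control share, and the closest pair was control WT_116 and Med23 CKO KO_117. The mean share was 11.7 ± 6.42% (SD, n = 4) in the controls and 3.21 ± 1.84% (SD, n = 3) in Med23 CKO, a difference of -8.47 percentage points (exact permutation test, two-sided, p = 0.0571). It was between -10.5 and -5.50 percentage points with each library left out in turn. This share contains the Bmpr1b value described above and is not independent of it. The sum itself was 41.7 ± 5.65 FPKM (SD, n = 4) in the controls and 47.3 ± 2.19 FPKM (SD, n = 3) in Med23 CKO (exact permutation p = 0.229). Acvr1 held 25.8 ± 1.29% (SD, n = 4) of it in the controls and 25.8 ± 1.497% (SD, n = 3) in Med23 CKO. In FPKM, Bmpr1a exceeded Bmpr1b by a ratio of 5.39, 11.3, 6.50 and 2.58 in the controls and of 13.3, 18.8 and 40.9 in Med23 CKO.

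**Figure D2:**
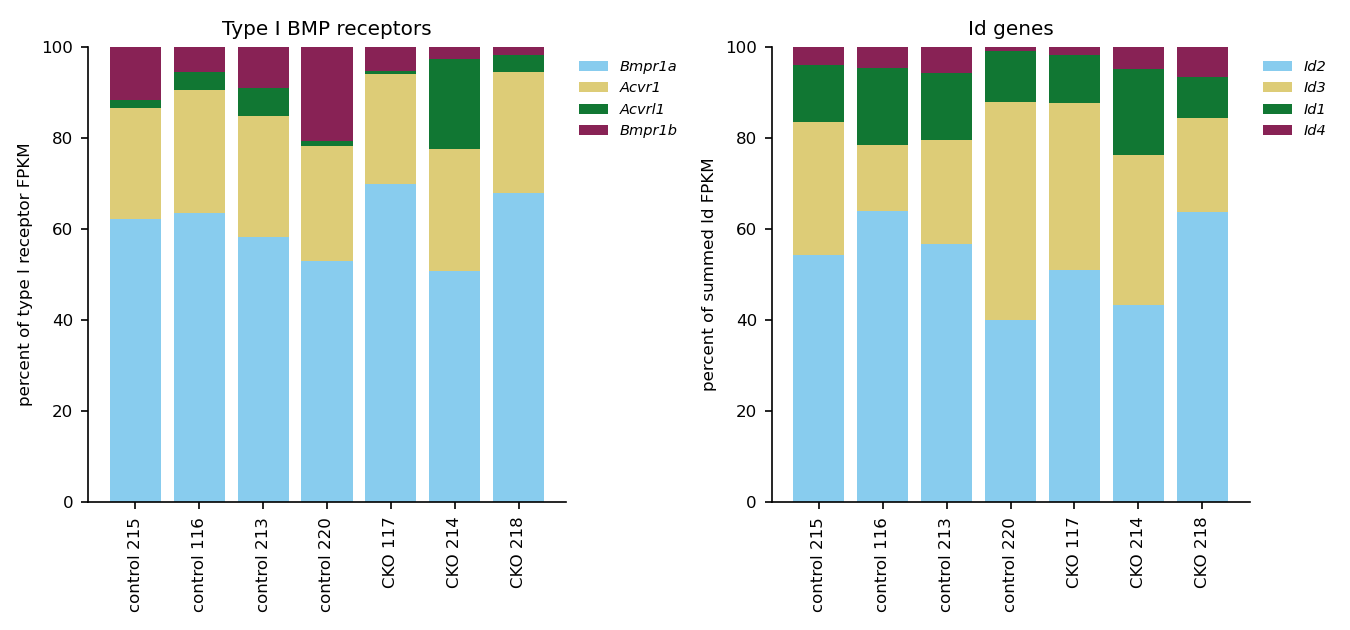
Share of each gene in percent (vertical axes) of the summed FPKM of the type I receptors (left) and of the Id genes (right), with 1 bar per library. The Bmpr1b segment is between 1.66 and 5.25% in the Med23 CKO libraries and between 5.60 and 20.6% in the controls, Acvrl1 reaches 19.6% in mouse KO_214, and the Id shares overlap between the groups.

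Acvrl1 encodes ALK1, a type I receptor for BMP9 and BMP10 that is known mainly from endothelium. It measured 0.842, 1.32, 2.94 and 0.420 FPKM in the controls and 0.362, 9.77 and 1.70 FPKM in Med23 CKO. Mouse KO_214 was the highest and mouse KO_117 the lowest of the 7 libraries, so that the Med23 CKO values spanned the controls. The log2 fold change was 0.62 (standard error 0.69, 95% interval -0.99 to 2.24), and it was -0.20 without mouse KO_214 and 1.29 without mouse KO_117. All 11 endothelial markers were highest in mouse KO_214, where they summed to 154 FPKM. The same sum was 88.5 FPKM in control WT_213, which had the second-highest Acvrl1, and between 15.5 and 51.2 FPKM in the other libraries. Endothelial markers ranged from 15.5 to 88.5 FPKM in the controls and from 15.7 to 154 FPKM in Med23 CKO. Sums of microglia and macrophage markers (1115 and 249 FPKM) and of mural and fibroblast markers (302 and 80.3 FPKM) were likewise highest in KO_214 and second highest in WT_213. The part of these 3 marker lists in the Acvrl1 values was not tested, and in bulk RNA fewer cells of a type cannot be told apart from less RNA per cell. An antisense gene, Gm16031, shares 127 exon bases with Acvrl1, and whether strand was used in counting is not given in the sources used here.

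Smad6 blocks type I BMP receptors and Smad1 and is itself switched on by BMP signals. It was the least abundant of the 10 genes, with 0.452, 0.356, 0.223 and 0.116 FPKM in the controls and 0.132, 1.43 and 0.364 FPKM in Med23 CKO. As with Acvrl1, mouse KO_214 was the highest library, and the remaining Med23 CKO values lay within the control range. The difference in mean log2(FPKM + 1) was 0.28 (exact permutation test, two-sided, p = 0.486, n = 4 and 3), and -0.04 without mouse KO_214. Its promoter is shown because it held the complete Smad palindrome GTCTAGAC, which was present in 0.213% of the 32851 RefSeq windows and in none of the other windows of these genes. The match, in capitals, begins 4 bases before the start, so the last 4 bases printed are transcribed (GRCm38.p6, chr9:64022056-64022309, reverse strand, 5′ to 3′):
Smad6: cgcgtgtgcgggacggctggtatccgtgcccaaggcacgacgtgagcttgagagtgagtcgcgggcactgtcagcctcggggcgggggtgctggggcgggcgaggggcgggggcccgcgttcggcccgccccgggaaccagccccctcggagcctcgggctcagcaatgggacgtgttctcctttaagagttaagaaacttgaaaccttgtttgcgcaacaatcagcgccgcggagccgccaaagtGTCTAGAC
A match describes the letters of this window and is not a measured binding site.

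**Figure D3:**
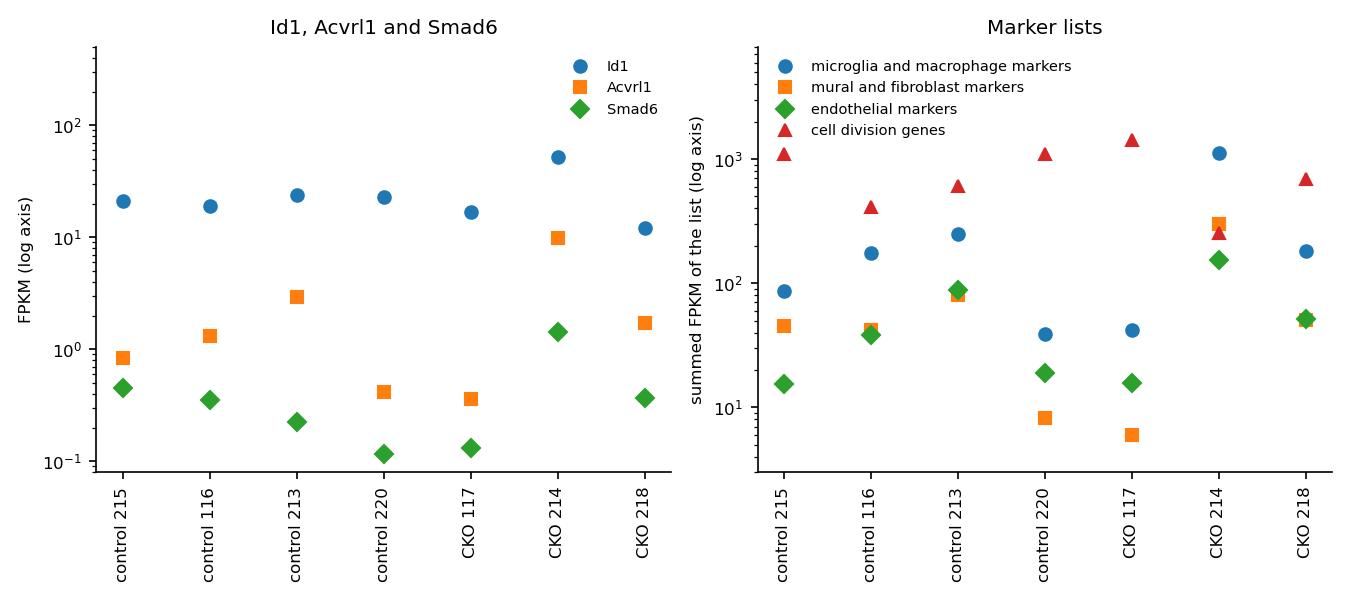
Left, FPKM (log axis) of Id1, Acvrl1 and Smad6 in each library (horizontal axis). Right, summed FPKM (log axis) of the genes of 4 marker lists in the same libraries. Mouse KO_214 has the highest value of the 3 genes and of the microglia, mural and endothelial lists, and the lowest sum of cell division genes (254 FPKM).

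The Id genes are the targets most often used as a readout of BMP signaling. Id2 was the most abundant of the 10 genes in the mean, with 92.7, 72.6, 92.5 and 82.4 FPKM in the controls and 82.3, 119 and 85.2 FPKM in Med23 CKO. It varied little between mice of a group, with a coefficient of variation of 11.3% in the controls and 21.1% in Med23 CKO, and its log2 fold change was 0.15 (standard error 0.19, 95% interval -0.29 to 0.59). Without mouse KO_214 it was -0.02.

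Id1, which is known from quiescent and self-renewing stem cells and from endothelium, had 21.2, 19.1, 24.0 and 23.0 FPKM in the controls and 16.7, 52.1 and 12.01 FPKM in Med23 CKO. The controls lay close together (coefficient of variation 9.77%), whereas the Med23 CKO libraries lay on both sides of them, KO_117 and KO_218 under every control and KO_214 above. The log2 fold change was therefore near 0, at 0.02 (standard error 0.45, 95% interval -1.03 to 1.06). Without mouse KO_214 it was -0.58, with an unadjusted p of 0.0298 from limma, and Id1 was then the 1 gene of the set that was lower at an unadjusted p under 0.05. In that same fit, 206 genes among all genes tested were lower at this threshold, against 141 of 14151 (0.996%) with all 7 libraries. The number of genes tested in the fit without KO_214 was not kept, so its share is not given.

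Id3, which acts redundantly with Id1 in development, had 49.6, 16.7, 36.9 and 98.6 FPKM in the controls and 59.4, 89.96 and 27.7 FPKM in Med23 CKO. The controls alone spanned all Med23 CKO values (coefficient of variation 69.1%), and the log2 fold change was 0.33 (standard error 0.61, 95% interval -1.10 to 1.77), -0.04 without mouse KO_214 and -0.09 without control WT_116. Id4, the member of the family linked to quiescence of hippocampal NSCs, had 6.83, 5.21, 9.42 and 1.89 FPKM in the controls and 2.97, 12.9 and 8.91 FPKM in Med23 CKO. The libraries of mice WT_220 and KO_117 were low in both groups, and the groups overlapped (log2 fold change 0.41, standard error 0.56, 95% interval -0.89 to 1.70). It was 0.02 without mouse KO_214 and 0.93 without mouse KO_117. The same 2 libraries had the lowest sums of mural and fibroblast markers (8.21 FPKM in WT_220 and 5.97 FPKM in KO_117), of microglia and macrophage markers (39.0 and 41.6 FPKM) and of oligodendrocyte lineage markers (384 and 144 FPKM), and the part of these in the Id4 values was not tested. Exons of Id4 share 82 bases with the antisense gene A330033J07Rik and 171 bases with Gm49291, also on the other strand.

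The summed FPKM of the 4 Id genes was 170, 114, 163 and 206 in the controls and 161, 273.5 and 134 in Med23 CKO. The groups overlapped, with a difference of 0.18 in the mean of the log2 sum (exact permutation test, two-sided, p = 0.657, n = 4 and 3), which was -0.12 without mouse KO_214. Id2 was the largest part of the sum in 6 of the 7 libraries, with 53.8 ± 10.02% (SD, n = 4) in the controls and 52.7 ± 10.3% (SD, n = 3) in Med23 CKO. Id3 was the largest in control WT_220, at 47.9% of the sum. Id1 made up between 8.97 and 19.0%, and Id4 between 0.917 and 6.66%, over the 7 libraries.

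The promoters of Id2 and Id4 are shown because each held GGCGCC, the core of a GC-rich BMP response element, which was present in 11.9% of RefSeq windows. The 250 bases before each start are printed 5′ to 3′ with the match in capitals (GRCm38.p6, chr12:25096093-25096342, reverse strand, for Id2, and chr13:48260866-48261115, forward strand, for Id4):
Id2: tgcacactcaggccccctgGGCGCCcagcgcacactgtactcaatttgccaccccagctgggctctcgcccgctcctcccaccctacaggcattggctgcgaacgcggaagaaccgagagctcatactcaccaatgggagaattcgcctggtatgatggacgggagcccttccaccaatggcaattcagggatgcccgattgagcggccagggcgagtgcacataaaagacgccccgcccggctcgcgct
Id4: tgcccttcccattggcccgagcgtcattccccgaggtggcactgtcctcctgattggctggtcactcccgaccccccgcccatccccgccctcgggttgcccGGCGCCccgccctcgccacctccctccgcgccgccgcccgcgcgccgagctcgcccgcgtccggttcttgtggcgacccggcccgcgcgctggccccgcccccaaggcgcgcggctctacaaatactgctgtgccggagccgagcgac
The match begins 231 bases before the start of Id2 and 148 bases before that of Id4. Bmpr1a and Bmpr2 had the same letters once, 198 and 105 bases before their starts, and Id3 had CAGAC at 167 and 68 bases before its start in place of GGCGCC. GC content was 63.3% for Id2, 73.3% for Id4, 79.3% for Bmpr1a and 59.3% for Bmpr2, all above the median of 52.7% over all windows. The share of windows of like GC content that held GGCGCC was not computed. The Egr site GCGGGGGCG (2.91% of windows), the E-box CACGTG (7.15%) and the cyclic AMP response element TGACGTCA (1.79%) were found in 0 of the windows of the 8 genes matched, which were all but Id1 and Acvrl1. All motifs were searched on both strands and could overlap.

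**Figure D4:**
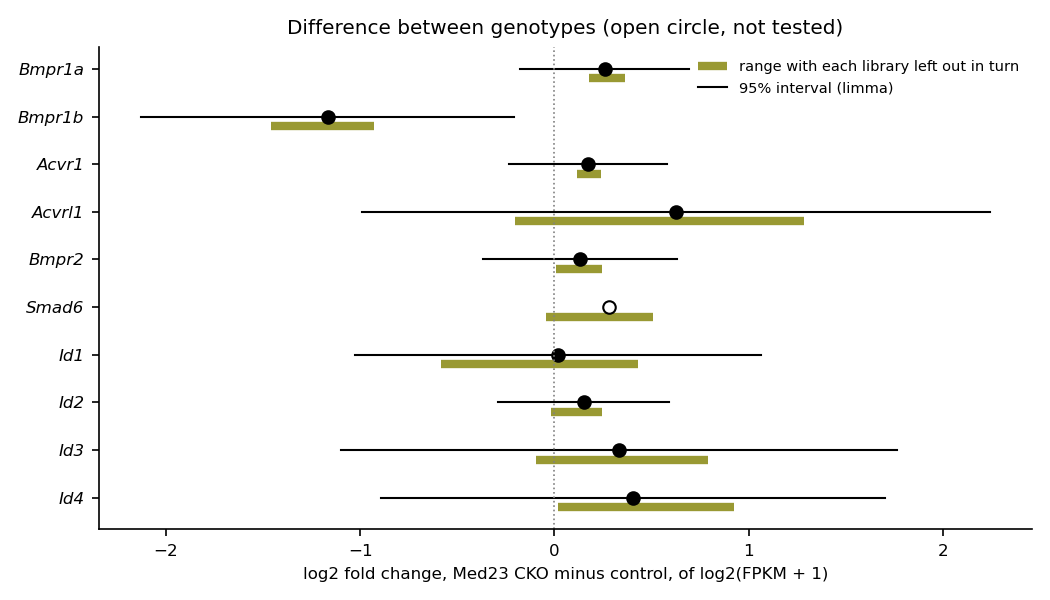
Log2 fold change of each gene, Med23 CKO minus control, on the log2(FPKM + 1) scale (horizontal axis). Points are means of all 7 libraries, black lines are limma's 95% intervals, olive bars are the range over fits that each omit 1 library, and the open circle is Smad6, which had no limma test. The interval of Bmpr1b (-2.13 to -0.21) lies below 0 and those of the others include 0.

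In control neurospheres the order of the mean levels was Id2 (85.0 ± 9.58 FPKM, SD, n = 4), Id3 (50.5 ± 34.9), Bmpr1a (24.7 ± 3.90), Id1 (21.8 ± 2.13), Bmpr2 (17.9 ± 3.49), Acvr1 (10.7 ± 1.32), Id4 (5.83 ± 3.15), Bmpr1b (4.86 ± 2.49), Acvrl1 (1.38 ± 1.101) and Smad6 (0.287 ± 0.148), all in FPKM. The ranges of neighbors in this order overlapped except between Bmpr2 and Acvr1 and between Acvr1 and Id4. In Med23 CKO neurospheres, Bmpr1b (1.52 ± 0.860 FPKM, SD, n = 3) came after Acvrl1 (3.94 ± 5.09 FPKM). Bmpr1b was above Acvrl1 in all 4 controls and in mouse KO_117 and below it in mice KO_214 and KO_218. Mouse KO_214 had the highest value of 6 of the 10 genes, the exceptions being Bmpr1a, Bmpr1b, Bmpr2 and Id3.

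The remaining genes of the pathway were read from 7 lists of 74 genes, of which 59 could be tested. At limma's unadjusted threshold of 0.05, Med23 CKO was higher for 2 of them and lower for 0 (3.39% and 0%, against 0.502% and 0.996% of all genes), and 0 passed an adjusted p of 0.05. Their median log2 fold change was 0.05, and -0.05 without mouse KO_214, where 28 had a higher and 31 a lower mean (36 and 23 with it). All Med23 CKO libraries lay above all controls for 3 of the 59 (5.08%, against 0.784% of all genes), Tgfbr1, Bmper and Nedd4l, and below them for 1 (1.69%, against 1.53%), Fkbp1a, a protein that binds type I receptors. Fkbp1a is named because of this separation, after its values were seen. The first gene past the unadjusted threshold was Tgfbr1, the type I receptor of TGF-beta, with 12.1, 9.62, 10.4 and 8.03 FPKM in the controls and 14.2, 15.1 and 14.8 FPKM in Med23 CKO (log2 fold change 0.52, standard error 0.19, limma unadjusted p = 0.0244). The second was Bmper, a secreted BMP-binding protein, with 3.10, 1.78, 3.16 and 2.76 FPKM in the controls and 5.03, 4.90 and 3.98 FPKM in Med23 CKO (log2 fold change 0.62, standard error 0.22, limma unadjusted p = 0.0246). Without control WT_116, their unadjusted p-values were 0.0532 and 0.0556, and without Med23 CKO KO_214 they were 0.0570 and 0.0574. Tgfbr1 also lost the threshold without control WT_220 (0.0560) or Med23 CKO KO_218 (0.0554), and Bmper without Med23 CKO KO_117 (0.0654).

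Among the other Smad proteins, 5 of 7 had a higher and 2 a lower mean (4 and 3 without mouse KO_214), and the smallest p was that of Smad5, a direct substrate of the BMP type I receptors. Smad5 had 52.3, 25.8, 30.4 and 55.6 FPKM in the controls and 37.7, 17.0 and 22.0 FPKM in Med23 CKO (log2 fold change -0.66, standard error 0.37, limma unadjusted p = 0.112), and without mouse KO_117 its log2 fold change was -0.97 with an unadjusted p of 0.0286, while without mouse KO_214 it was -0.42 with an unadjusted p of 0.326. Its groups overlapped. Smad1 and Smad4 had log2 fold changes of 0.07 and 0.02. Of 10 regulators of Smads and receptors, 7 had a higher mean (4 without mouse KO_214), and Nedd4l, a ubiquitin ligase for Smads, had the smallest p (log2 fold change 0.39, limma unadjusted p = 0.0898).

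Of 14 BMP ligands, 7 could be tested, 3 with a higher and 4 with a lower mean (2 and 5 without mouse KO_214). Bmp7 (27.5 and 25.4 mean FPKM in control and Med23 CKO) and Bmp1, a protease in spite of its name (38.7 and 39.3 mean FPKM), were the abundant ones, and Bmp2 and Bmp4 had control means of 1.49 and 0.751 FPKM. The smallest p was that of Bmp3 (log2 fold change 0.32, limma unadjusted p = 0.403), with a log2 fold change of 0.030 without mouse KO_214. Bmp10, a ligand of Acvrl1, was listed at 0 in all 7 libraries. Means were higher in Med23 CKO for 7 of the 10 antagonists tested (5 without mouse KO_214), and the antagonist Noggin (Nog) was at 0.663 and 0.534 mean FPKM. Its single values in Med23 CKO were 0.491, 1.01 and 0.102 FPKM, the highest in mouse KO_214. Among 6 further BMP targets that were tested, 5 had a higher mean (3 without mouse KO_214), with Hey1 at the smallest p (log2 fold change 0.29, limma unadjusted p = 0.326, and 0.15 in log2 fold change without mouse KO_214).

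The proteins that Id factors act on were represented by 7 tested genes, all 7 of which were lower in the mean of Med23 CKO, while 0 reached limma's unadjusted threshold of 0.05. Without mouse KO_214, 4 were higher and 3 lower. The E proteins Tcf3, Tcf4 and Tcf12 had log2 fold changes of -0.23, -0.14 and -0.05, which turned to 0.020, 0.12 and 0.060 without mouse KO_214. Olig1, a factor of the oligodendrocyte lineage with the smallest p of this list, had 1361, 437, 603 and 1943 FPKM in the controls and 1586, 214.5 and 334 FPKM in Med23 CKO, which overlapped widely (log2 fold change -0.91, standard error 0.78, limma unadjusted p = 0.279). Without mouse KO_117 the log2 fold change of Olig1 was -1.77, with an unadjusted p of 0.0227, and without mouse KO_214 it was -0.33 with an unadjusted p of 0.700.

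**Figure D5:**
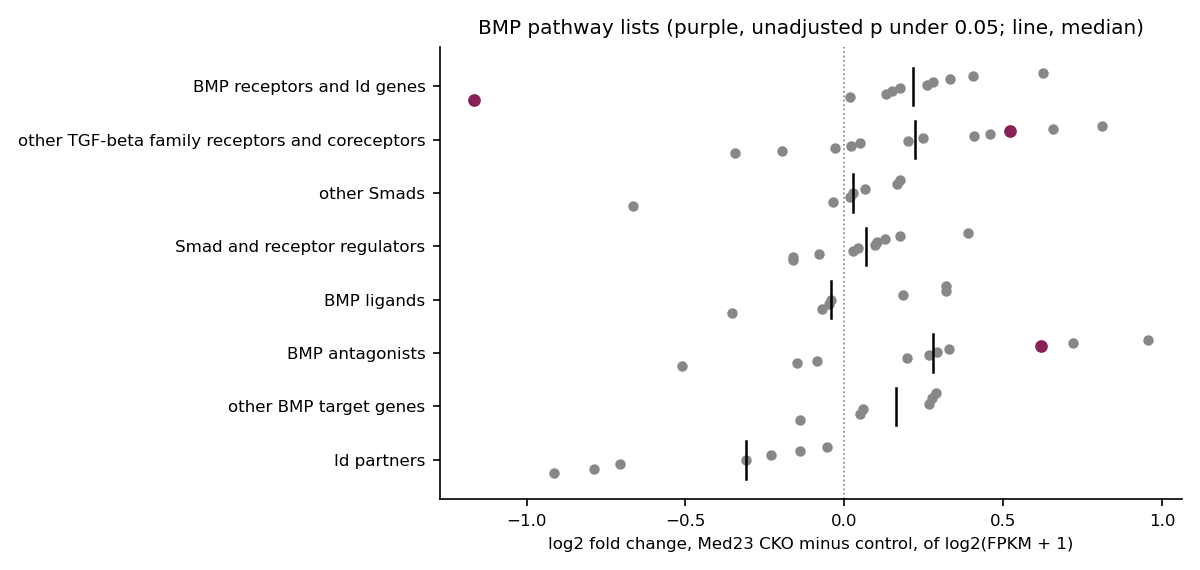
Log2 fold change of single genes (points, horizontal axis, log2(FPKM + 1) scale) for the 10 BMP receptor, Smad6 and Id genes (top row) and 7 lists of other pathway genes. Black lines are medians and purple points passed limma's unadjusted threshold of 0.05, which were Bmpr1b on the lower side and Tgfbr1 and Bmper on the higher side.

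To see which genes varied like these across the 7 libraries, each of the 9 genes tested was compared with 13132 others of mean FPKM of at least 1 by Pearson's r of log2(FPKM + 1). With 7 points and so many genes, high values of r are common, and they are given as a description only. Bmpr1b varied like 6330403K07Rik (r = 0.993, and 0.980 without the 2 libraries farthest from the median). Acvrl1 was most like Cd300a and Arap3 (both r = 0.999), Id1 like Csf2ra (0.995, and 0.961 without the 2 farthest libraries) and Nckipsd (0.990 and 0.873), and Id4 like Kat2b (0.997 and 0.987) and Sdpr. For Id3 the nearest genes were Fmnl3 and Tgfb1i1, for Id2 Itpkb and Phka2, for Bmpr1a Xiap and Btbd1, for Bmpr2 Larp4 and N4bp2l2, and for Acvr1 Slc46a3 and Slco3a1, with r between 0.952 and 0.987.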

How the data were processed

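RNA from primary neurospheres was sequenced in 7 libraries (4 control, 3 Med23 CKO), which were assigned to mice and genotypes by their titles. The authors removed adapters with cutadapt, aligned reads to mm10 with Tophat at default settings, and deposited FPKM per gene from Cuffdiff; the gene annotation is not given in the sources used here. Columns with group means and the Cuffdiff comparison (fold change, test statistic, p and q) were not used. The depth of the libraries is unknown. 0 columns belonged to samples without a group. Per the methods each library held the neurospheres of 1 mouse. The study counts 3 libraries in each group, but 4 libraries carry control labels and all were used; which control it did not count is not given in the sources used here.

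FPKM was analysed as log2(FPKM + 1) by limma 3.58.1 in R 4.3.3 (lmFit, eBayes with trend, two-sided) over the 14151 genes with mean FPKM of at least 0.5, with Benjamini-Hochberg adjustment. Single values were tested by exact permutation over the 35 ways of dividing 7 libraries into 4 and 3, two-sided by absolute size (Python 3.11.15, numpy 2.4.6). The limma fit was checked on simulated data in which every gene had the same spread, unlike in these data. The permutation test was checked on 1 fixed example. The genes, lists, motifs and tests were chosen with earlier results of these data known, so that Bmpr1b in particular was known to be lower. Genes named are the 10 members, in each pathway list those at an unadjusted p under 0.05 or else the gene with the smallest p, and the 2 genes of highest r for each member, of which 1 is not reported here; further list genes (Smad1, Smad4, Bmp1, Bmp2, Bmp4, Bmp7, Bmp10, Nog and the E proteins) were added for their roles after their values were seen. Marker lists are given as sums. Positions are from GENCODE M21 and promoter sequences from RefSeq, both on GRCm38. RefSeq windows were matched by symbol for 8 of the 10 genes. Alternatives were a pseudocount of 0.1, no filter or a minimum mean of 1 FPKM, quantile normalization, aligned library medians, limma without trend, robust empirical Bayes (statmod 1.5.0), array weights, each library left out, and the mice whose number begins with 2.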

Additional observations from a re-analysis of the deposited data

How the results depend on the processing

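No gene of the set was higher at an unadjusted p under 0.05, and none passed an adjusted p of 0.05, under any of the 16 alternatives. Bmpr1b was lower under all 16 (log2 fold changes from -1.71 to -0.93) and kept an unadjusted p under 0.05 in 12. The count of genes of the set that were lower at an unadjusted p under 0.05 was 0 or 1 with each library left out. It was 0 without control WT_215, control WT_220 or Med23 CKO KO_218, and 1, Id1 instead of Bmpr1b, without KO_214. With all 7 libraries, 0.996% of all genes tested were lower at this threshold. With each library left out, the median log2 fold change of the 10 genes was between -0.029 and 0.27, the difference in Bmpr1b share between -10.5 and -5.50 percentage points, and the difference in the log2 sum of the Id genes between -0.12 and 0.40. The same ranges were -0.58 to 0.43 for Id1, -0.015 to 0.25 for Id2, -0.093 to 0.79 for Id3 and -0.20 to 1.29 for Acvrl1. With array weights, Id1 was at -0.56 and Id3 at -0.23, and among the mice whose number begins with 2, Id3 was at -0.17; the cause was not tested.

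Over all genes, the counts at an unadjusted p under 0.05 were 141 lower and 71 higher. They were 887 and 193 with array weights, 1381 and 476 among the mice whose number begins with 2, and 140 higher with no filter, where more genes were tested. With each library left out they ranged from 71 to 410 lower and from 44 to 362 higher, and 0 or 1 gene passed an adjusted p of 0.05. The estimate of the array weights stopped before it converged. In a comparison of means added after seeing the data, leaving out KO_214 gave 4 genes of the set with a higher and 6 with a lower mean, and turned Tcf3 to 0.020, Tcf4 to 0.12 and Tcf12 to 0.060. Tgfbr1 and Bmper each lost the unadjusted threshold under 5 of 16 alternatives. With 3 libraries against 4, intervals of single genes such as Id3 and Acvrl1 span changes in both directions.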
